A study of Mus musculus with 12 samples.

Results

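The 8 genes described here, Gata6, Gata4, Sox17, Sox7, Foxa2, Pdgfra, Dab2 and Cubn, are genes by which primitive endoderm is commonly recognised. They were taken as a list of gene names and not by their values, and were 8 of the 39017 genes in the deposited table. All 8 passed the filter on low counts, which kept 17885 genes.

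Poly(A) RNA was sequenced from mouse embryonic stem cells (mESCs), in 12 libraries from 2 lines in 2 media with 3 biological replicates in each of 4 groups. J1 is a wild-type male mESC line. 3B3-3l cells lack functional alleles of Dnmt3a and Dnmt3b (Dnmt3a-/-, Dnmt3b-/-) and carry a Dnmt3b transgene and a Dnmt3l transgene, both driven by the CAG promoter, which is active in most cell types. Serum medium held fetal calf serum and LIF at 500 U/ml as the labels give it, for which the study's methods give another dose. The 2i medium was serum-free and held the MEK inhibitor PD0325901 at 1 uM, the GSK3 inhibitor CHIR99021 at 3 uM and LIF at 1000 U/ml. In serum, J1 cells grew on inactivated feeders, removed by repeated plating ahead of RNA extraction or transfer to 2i, while 3B3-3l cells grew on gelatin. Line and culture surface therefore cannot be told apart in serum, and in J1 the feeders were left behind on the way to 2i.

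Primitive endoderm is the epithelium that forms on the face of the inner cell mass towards the blastocyst cavity, and it gives rise to the visceral and parietal endoderm of the yolk sacs. In the embryo, FGF signalling through MEK and ERK turns inner cell mass cells from the NANOG-positive epiblast state to the GATA6-positive primitive endoderm state, and GATA6 acts upstream of PDGFRA, SOX17, GATA4 and SOX7. In serum, a small part of an mESC culture can take on this state, and MEK inhibition is a standard way to keep mESCs from doing so. The RNA came from whole cultures, so fewer cells that express a gene and less RNA per cell cannot be told apart.

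Estimated reads per library ran from 37050652 to 44515395, so that 3 counts, the floor used here, were worth 0.0684 to 0.0813 CPM (counts per library of a standard size, after TMM scaling), for counting error only. The markers of mESCs were at high levels in every group (Pou5f1 at mean levels of 1224 to 1333 CPM, Nanog at 306.6 to 631.2 CPM). Of the altered genes, Dnmt3b was at mean levels of 413, 44.1, 890.8 and 928.1 CPM and Dnmt3a at 166.4, 41.5, 32.1 and 4.67 CPM in J1 serum, J1 2i, 3B3-3l serum and 3B3-3l 2i. Dnmt3l was at 285, 52.8, 484.6 and 289.8 CPM in the same order, higher in 3B3-3l than in J1 in each medium, and in 3B3-3l it fell 1.67-fold in 2i (adjusted p = 1.37e-08), while Dnmt3b was not called there (adjusted p = 0.332). Reads of native genes and transgenes were not told apart. The reads of Dnmt3a that remained in 3B3-3l were not traced to the deleted or the retained part of the gene.

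Foxa2, Dab2 and Cubn were lower in 2i in both lines, and all 8 genes were higher in 3B3-3l than in J1 when both lines were in serum. In J1, 5 of the 8 were called at an adjusted p under 0.05 between 2i and serum, with 2 higher (Gata4, Sox17) and 3 lower (Foxa2, Dab2, Cubn). Over all tested genes 66.1% were called in that comparison, 33.2% higher and 32.9% lower. In 3B3-3l, 6 were called, and all 6 were lower in 2i (Gata6, Sox17, Sox7, Foxa2, Dab2, Cubn), where 65.4% of all genes were called, 32.7% higher and 32.7% lower. The median log2 fold change of the 8 was -0.70 in J1 and -1.71 in 3B3-3l, beside 0.01 for the median of all genes in each line. The share of the 8 that was called in either line was near that of all genes.

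In serum all 8 genes were called higher in 3B3-3l, where 38.7% of all genes were called, 21.5% higher and 17.2% lower. The call of Foxa2 was lost in 8 of 18 alternative fits, described below. For none of the 8 did the libraries of the lines overlap. The share of all genes without such overlap is not given, so this is not read as a trait of the 8. In 2i, 3 of the 8 were called higher in 3B3-3l (Sox7, Pdgfra, Dab2) and none lower, where 45.9% of all genes were called, 23.0% higher and 22.9% lower. The median log2 difference of the 8 between the lines was 1.05 in serum and 0.40 in 2i, with medians of 0.03 and 0.01 for all genes. The median in 2i lies between the fitted values of Cubn and of Foxa2, which was at or under the floor in both lines there. The comparisons share libraries, so these counts are not independent of each other.

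**Figure D1:**
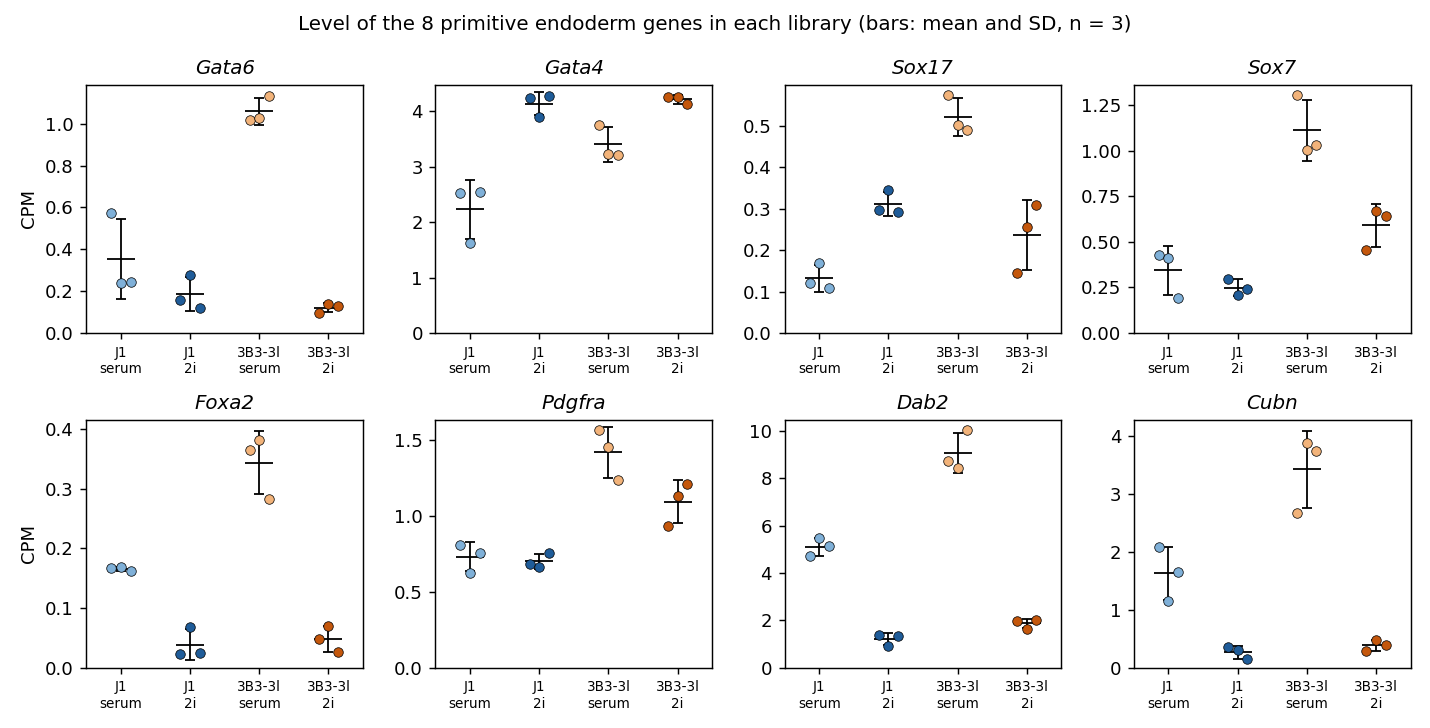
Level of each gene (CPM, vertical axes from 0) in the 12 libraries by group, with points for libraries and bars for the mean and SD (n = 3). The 3B3-3l serum libraries were the highest for every gene except Gata4, which was highest in the 2i groups.

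Gata6 (ENSMUSG00000005836, on chromosome 18) encodes the zinc finger factor at the top of the primitive endoderm programme. Its level was 0.573, 0.241 and 0.244 CPM in J1 serum, 0.160, 0.275 and 0.122 in J1 2i, 1.02, 1.03 and 1.13 CPM in 3B3-3l serum, and 0.0962, 0.139 and 0.129 CPM in 3B3-3l 2i. The J1 groups overlapped, with 1 of the 3 serum libraries above the rest, while the 3B3-3l serum libraries stood above all 9 others. Gata6 fell 8.54-fold in 3B3-3l (log2 fold change -3.09 ± 0.38 (SE), adjusted p = 2.33e-06), and in J1 its log2 fold change of -0.92 ± 0.40 missed the threshold (adjusted p = 0.0547). The change in 2i was lower in 3B3-3l than in J1 by 2.17 ± 0.59 on the log2 scale, a difference that was itself called (adjusted p = 0.00927). The value in J1 turned on single libraries: it was -0.38 (adjusted p = 0.47) without J1 serum replicate 1, and it was called without J1 serum replicate 2 or 3 or J1 2i replicate 2 (adjusted p from 0.0224 to 0.0334). In serum, Gata6 was 2.96-fold higher in 3B3-3l than in J1 (adjusted p = 0.00102), and in 2i the lines overlapped at 4 to 12 reads per library (adjusted p = 0.339).

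Gata4 (ENSMUSG00000021944, chr14:63198914-63271712), a second GATA factor of the primitive endoderm that is also used in heart and gut, was the one of the 8 with its highest levels in 2i in both lines. Libraries held 2.53, 1.62 and 2.55 CPM in J1 serum, 4.24, 3.90 and 4.27 in J1 2i, 3.76, 3.23 and 3.22 CPM in 3B3-3l serum, and 4.26, 4.26 and 4.13 CPM in 3B3-3l 2i. Every 2i library was above every serum library, and the 2i groups of the 2 lines overlapped. In J1 Gata4 rose 1.86-fold in 2i (log2 fold change 0.89 ± 0.14, adjusted p = 4.74e-05), and in 3B3-3l the log2 fold change was 0.31 ± 0.14 (adjusted p = 0.058), which was called without 3B3-3l serum replicate 1 or J1 serum replicate 2 and in a fit of the 6 libraries compared (adjusted p from 0.0224 to 0.0389). In serum it was 1.53-fold higher in 3B3-3l (adjusted p = 0.00403), and in 2i the log2 difference was 0.03 ± 0.13 (adjusted p = 0.889). The difference of the 2i effects was -0.58 ± 0.20 (adjusted p = 0.0333), and that call was lost with length offsets (adjusted p = 0.0834) and without any one of 6 libraries (adjusted p from 0.0515 to 0.0779), namely 3B3-3l 2i replicates 1 and 3, 3B3-3l serum replicate 1, J1 2i replicates 1 and 3 and J1 serum replicate 2.

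The levels of the 2 GATA genes were also set against each other per transcript length (on the RPKM scale, CPM per kilobase of effective transcript length), although in neither line were both called between the media. In serum Gata4 was 7.18 ± 2.56 times the level of Gata6 in J1 (range 4.66 to 9.79) and 3.30 ± 0.30 times in 3B3-3l (range 2.95 to 3.47; SD, n = 3). In 2i the ratio was 26.3 ± 12.0 in J1 (range 13.3 to 36.9) and 37.7 ± 6.58 in 3B3-3l (range 33.4 to 45.3). The media did not overlap in either line, and the 2i groups of the lines did. No test was run on the ratio.

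Sox17 (ENSMUSG00000025902, chr1:4490928-4497426), an SRY-box factor of primitive and definitive endoderm and of endothelium, moved in opposite directions in the 2 lines. Its level was 0.119, 0.169 and 0.108 CPM in J1 serum, 0.296, 0.344 and 0.293 in J1 2i, 0.574, 0.502 and 0.489 CPM in 3B3-3l serum, and 0.144, 0.255 and 0.309 CPM in 3B3-3l 2i. All J1 libraries in 2i were above those in serum, and all 3B3-3l libraries in 2i were below those in serum. Sox17 rose 2.31-fold in J1 (log2 fold change 1.21 ± 0.36, adjusted p = 0.00824) and fell 2.20-fold in 3B3-3l (log2 fold change -1.14 ± 0.30, adjusted p = 0.00365). The difference of these effects was -2.35 ± 0.47 (adjusted p = 0.00131). In serum it was 3.86-fold higher in 3B3-3l (log2 difference 1.95 ± 0.34, adjusted p = 3.09e-04), the largest of the 8 line differences there, and in 2i the log2 difference was -0.40 ± 0.33 (adjusted p = 0.35). The counts were low (4 to 7 reads per library in J1 serum), and the rise in J1 was not called with length offsets (adjusted p = 0.063).

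Sox7 (ENSMUSG00000063060, chr14:63943706-63950732) is a close relative of Sox17 that follows it in the primitive endoderm programme. It was at 0.430, 0.410 and 0.190 CPM in J1 serum, 0.296, 0.207 and 0.244 in J1 2i, 1.30, 1.00 and 1.03 CPM in 3B3-3l serum, and 0.457, 0.672 and 0.645 CPM in 3B3-3l 2i. All 3B3-3l libraries, in either medium, were above all J1 libraries. Sox7 fell 1.88-fold in 3B3-3l (log2 fold change -0.91 ± 0.26, adjusted p = 0.0054), and in J1 the log2 fold change was -0.48 ± 0.35 (adjusted p = 0.237). It was higher in 3B3-3l by 3.18-fold in serum (adjusted p = 2.20e-04) and by 2.36-fold in 2i (adjusted p = 0.00444). Per length, the ratio of Sox7 to Sox17 was 1.86 ± 1.37 in J1 serum and 0.499 ± 0.065 in J1 2i without overlap (lowest serum value 0.98, highest 2i value 0.569), and 1.22 ± 0.22 and 1.75 ± 1.07 in 3B3-3l serum and 2i. The ratio depends on how Sox17 reads were split between models of 3130 and 1512 bases, with 0 to 100% on the longer one. In J1 2i, replicates 1 and 2 held Sox17 at 0.296 and 0.344 CPM but at 0.221 and 0.117 RPKM.

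Foxa2 (ENSMUSG00000037025, chr2:148042877-148046969), a forkhead factor of visceral and definitive endoderm, was the member with the fewest reads. In serum it was at 0.167, 0.169 and 0.163 CPM in J1 and at 0.366, 0.382 and 0.283 CPM in 3B3-3l. In 2i it was at 0.0228, 0.0689 and 0.0244 CPM in J1 and at 0.0481, 0.0695 and 0.0258 CPM in 3B3-3l, which is 1 to 3 reads per library and at or under the floor. Summed over libraries, J1 held 20 reads in serum and 5 in 2i, a 4.27-fold ratio with an exact 95% counting interval of 1.56 to 14.6, and 3B3-3l held 41 and 6, a 7.09-fold ratio with an interval of 2.99 to 20.4. Both falls were called (adjusted p = 0.00365 in J1 and 5.84e-05 in 3B3-3l), that in J1 not with length offsets (adjusted p = 0.0521). No fold is given between the lines in 2i, where both groups were at or under the floor. In serum Foxa2 was 2.05-fold higher in 3B3-3l (log2 difference 1.04 ± 0.36, adjusted p = 0.0322), a call that was lost by the DESeq2 test (adjusted p = 0.185), without the low-count filter (adjusted p = 0.146), with length offsets (adjusted p = 0.173) and without J1 serum replicate 1, 2 or 3 or 3B3-3l serum replicate 1 or 2 (adjusted p from 0.08 to 0.114).

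Pdgfra (ENSMUSG00000029231, chr5:75151322-75198206) encodes the PDGF receptor alpha, the surface protein most used to sort primitive endoderm and also a receptor of fibroblasts and other mesenchyme. Levels were 0.812, 0.627 and 0.759 CPM in J1 serum, 0.684, 0.666 and 0.756 in J1 2i, 1.57, 1.46 and 1.24 CPM in 3B3-3l serum, and 0.938, 1.14 and 1.21 CPM in 3B3-3l 2i. Every 3B3-3l library was above every J1 library, the J1 media overlapped, and the 3B3-3l serum libraries were all above those in 2i. The effect of 2i was not called in either line, with log2 fold changes of -0.06 ± 0.20 in J1 (adjusted p = 0.81) and -0.38 ± 0.18 in 3B3-3l (adjusted p = 0.0724). In 3B3-3l it was called lower when at least 10 counts were required in every library (log2 fold change -0.43, adjusted p = 0.0275). Pdgfra was higher in 3B3-3l by 1.94-fold in serum (log2 difference 0.95 ± 0.19, adjusted p = 8.32e-04) and by 1.56-fold in 2i (0.64 ± 0.19, adjusted p = 0.0119).

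Both endocytic genes fell in 2i in each line. Dab2 (ENSMUSG00000022150, chr15:6299788-6440715) encodes a clathrin adaptor that is needed in visceral endoderm for uptake of maternal nutrients. Its level was 4.71, 5.47 and 5.15 CPM in J1 serum, 1.39, 0.918 and 1.34 in J1 2i, 8.75, 8.43 and 10.02 CPM in 3B3-3l serum, and 1.97, 1.65 and 2.01 CPM in 3B3-3l 2i. None of the 4 groups overlapped another. Dab2 fell 4.2-fold in J1 (log2 fold change -2.07 ± 0.15, adjusted p = 3.95e-09) and 4.83-fold in 3B3-3l (-2.27 ± 0.13, adjusted p = 3.41e-10), and the difference of the effects was -0.20 ± 0.20 (adjusted p = 0.474). It was higher in 3B3-3l by 1.77-fold in serum (adjusted p = 5.56e-05) and by 1.54-fold in 2i (adjusted p = 0.00544).

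Cubn (ENSMUSG00000026726, chr2:13276338-13491876) encodes cubilin, the large peripheral receptor that visceral endoderm and kidney use to take up protein-bound nutrients. It was at 2.08, 1.16 and 1.65 CPM in J1 serum, 0.365, 0.298 and 0.146 in J1 2i, 2.66, 3.87 and 3.73 CPM in 3B3-3l serum, and 0.289, 0.487 and 0.387 CPM in 3B3-3l 2i. The serum groups did not overlap with each other or with 2i, and the 2i groups of the lines overlapped. Cubn fell 5.94-fold in J1 (log2 fold change -2.57 ± 0.31, adjusted p = 2.49e-06) and 8.77-fold in 3B3-3l (-3.13 ± 0.28, adjusted p = 5.12e-08), and the difference of the effects was -0.56 ± 0.46 (adjusted p = 0.376). In serum it was 2.10-fold higher in 3B3-3l (adjusted p = 0.00144), and in 2i the log2 difference was 0.51 ± 0.39 (adjusted p = 0.317). The ratio of Dab2 to Cubn per length was 15.8 ± 5.14 in J1 serum, 16.9 ± 6.55 in J1 2i, 11.7 ± 2.05 in 3B3-3l serum and 22.8 ± 8.23 in 3B3-3l 2i, and the media overlapped in J1 but not in 3B3-3l.

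**Figure D2:**
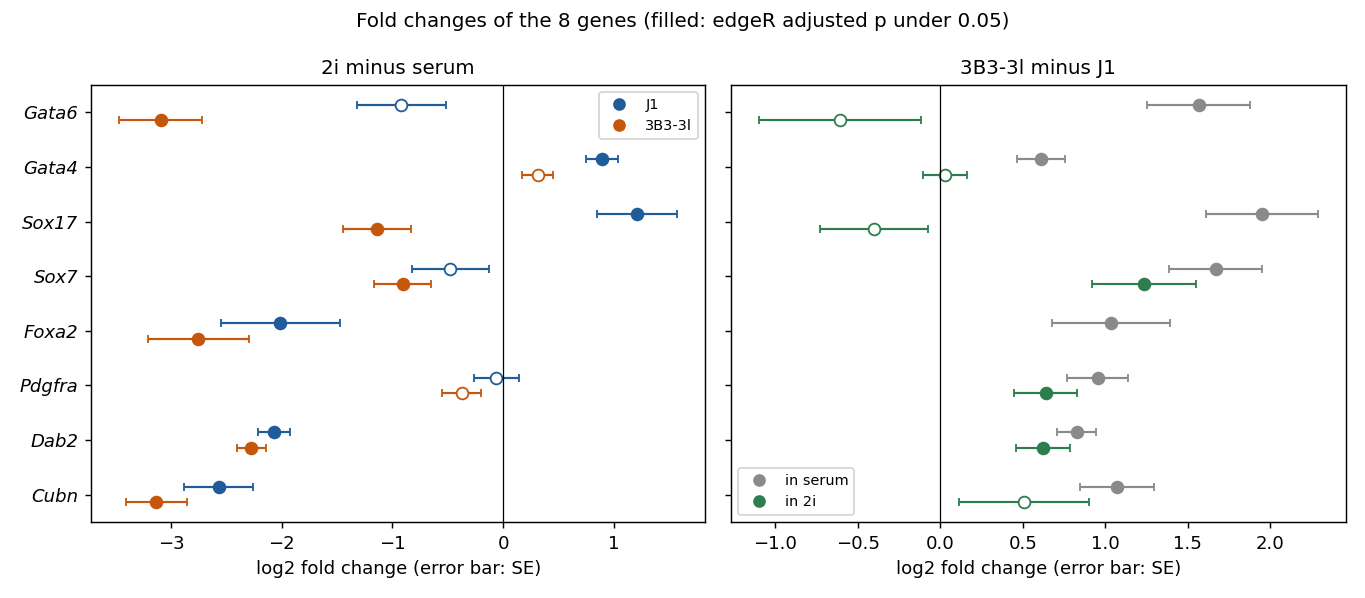
Log2 fold change with its standard error for each gene, with 2i minus serum in each line on the left and 3B3-3l minus J1 in each medium on the right. Filled points were called, and Foxa2 has no point for the lines in 2i, where both groups held 1 to 3 reads per library. Gata6 and Sox17 show the widest gaps between the lines on the left.

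The DNA upstream of Dab2 and Cubn, the endocytic pair that fell in both lines, is shown because CpG dinucleotides are the sites that the DNMT3 enzymes altered in 3B3-3l can methylate. No methylation was measured in these libraries. The sequences are the 250 bases before annotated RefSeq starts (GRCm38.p6), 5′ to 3′ on the strand of the gene, with each CpG in capitals. The first Dab2 window is chr15:6299539-6299788 on the plus strand, the second, before a start inside the gene, is chr15:6386498-6386747 on the plus strand, and the Cubn window is chr2:13491877-13492126 on the minus strand. The last base of the first Dab2 window is also the first base of the gene in the coordinates given above, and this was not resolved.
Dab2 window 1: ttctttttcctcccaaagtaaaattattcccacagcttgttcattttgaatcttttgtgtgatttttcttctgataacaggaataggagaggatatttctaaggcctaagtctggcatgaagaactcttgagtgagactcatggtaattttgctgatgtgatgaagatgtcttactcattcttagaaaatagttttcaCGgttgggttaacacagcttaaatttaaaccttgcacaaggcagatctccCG
Dab2 window 2: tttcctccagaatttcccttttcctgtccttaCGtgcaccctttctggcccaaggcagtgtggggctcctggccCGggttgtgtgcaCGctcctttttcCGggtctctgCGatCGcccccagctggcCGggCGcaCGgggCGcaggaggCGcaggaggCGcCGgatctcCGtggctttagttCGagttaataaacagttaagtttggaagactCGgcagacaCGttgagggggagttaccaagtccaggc
Cubn window: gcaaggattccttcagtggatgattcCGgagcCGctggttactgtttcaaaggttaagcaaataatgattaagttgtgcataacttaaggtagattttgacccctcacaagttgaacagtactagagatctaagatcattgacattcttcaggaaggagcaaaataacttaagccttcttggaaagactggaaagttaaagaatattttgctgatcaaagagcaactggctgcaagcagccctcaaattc
The windows at the 5′ ends of both genes held 2 CpG each, and the second Dab2 window held 17, where the median over 32851 promoter windows of the same length was 6. The one Pdgfra window held 4 CpG, and the 3 Foxa2 windows held 6, 20 and 13. The GATA letters GATAA (searched on both strands) occurred once in Dab2 window 1, with the first base at position -178 from the start, once in the last-named Foxa2 window, at -182, and in 22.6% of all windows. The windows used here covered 4 of the 8 genes, and no window of Gata6, Gata4, Sox17 or Sox7 was examined.

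On a scale that allows levels of different genes to be compared (RPKM), Dab2 and Gata4 led in all 4 groups and exchanged places with the medium. In serum Dab2 was first, at 2.14 ± 0.17 in J1 and 3.51 ± 0.37 in 3B3-3l, and Gata4 second, at 0.746 ± 0.165 and 1.16 ± 0.15. In 2i Gata4 was first, at 1.41 ± 0.16 in J1 and 1.48 ± 0.08 in 3B3-3l, and Dab2 second, at 0.370 ± 0.086 and 0.745 ± 0.104. The other 6 genes had group means between 0.0241 (Cubn in J1 2i) and 0.358 (Sox7 in 3B3-3l serum). Cubn came next after these genes in J1 serum, at 0.145 ± 0.042, and last in both 2i groups. In J1 serum, Gata6, Pdgfra, Foxa2 and Sox7 lay between 0.110 and 0.117, within their spread of each other.

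**Figure D3:**
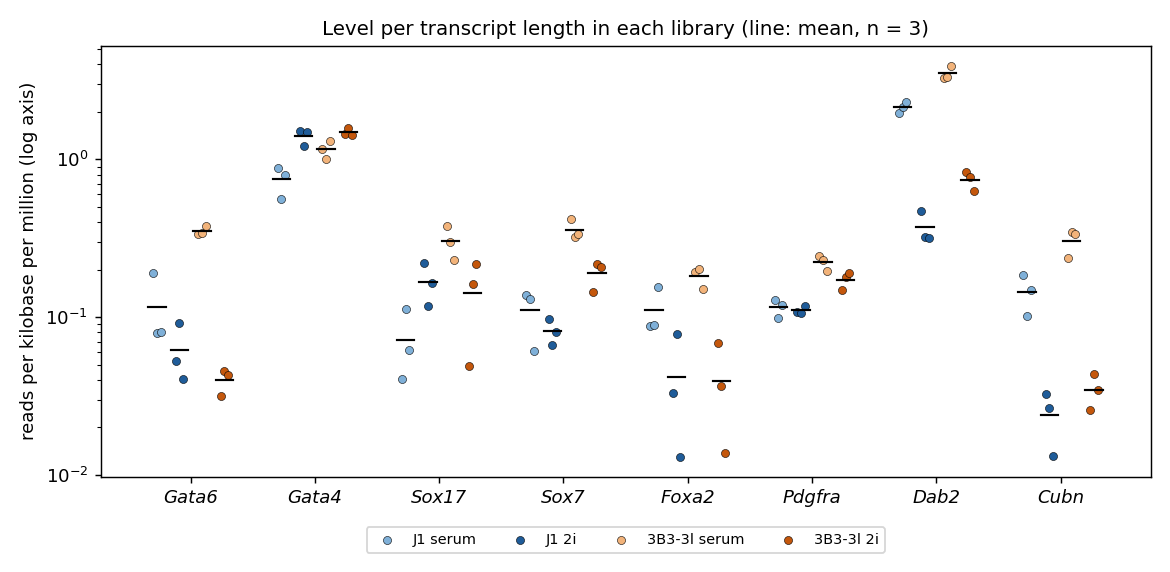
Level of each gene per transcript length (RPKM, log axis) in the 12 libraries, with a line at each group mean. Dab2 led in serum and Gata4 in 2i, and the other 6 genes had group means of 0.358 or lower.

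The order of the 4 groups was shared by part of the list. For Foxa2, Dab2 and Cubn the means ran from 3B3-3l serum through J1 serum and 3B3-3l 2i to J1 2i, and only the last step overlapped, for Foxa2 and Cubn. For Sox7 and Pdgfra they ran from 3B3-3l serum through 3B3-3l 2i and J1 serum to J1 2i, with overlap of the last 2. Gata6 ran from 3B3-3l serum through J1 serum and J1 2i to 3B3-3l 2i, and only the first step was free of overlap. Sox17 ran from 3B3-3l serum through J1 2i and 3B3-3l 2i to J1 serum, and Gata4 from 3B3-3l 2i through J1 2i and 3B3-3l serum to J1 serum. Across the difference of the 2i effects, 34.7% of all genes were called, 16.3% higher and 18.3% lower in 3B3-3l, and of the 8 genes 3 were called lower (Gata6, Gata4, Sox17) and none higher.

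Reads were spread over transcript models in a way that differed between replicates. All reads of Gata6, Sox7 and Cubn fell on 1 model each. For Pdgfra, 2 models of 6553 and 6570 bases took the reads by turns, with model 201 holding from 0 to 100% of them between libraries, and for Gata4 the share of model 001 ran from 7.29% to 72.1%. For Dab2, 8 of 15 models held reads and model 001 held 19.6% to 97.5%. Because replicates of one group differed this much, the shares were not compared between groups. CPM and the main fit used gene totals. Levels per length, their ratios and the length offsets used the length of each model, so they depend on this split.

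**Figure D4:**
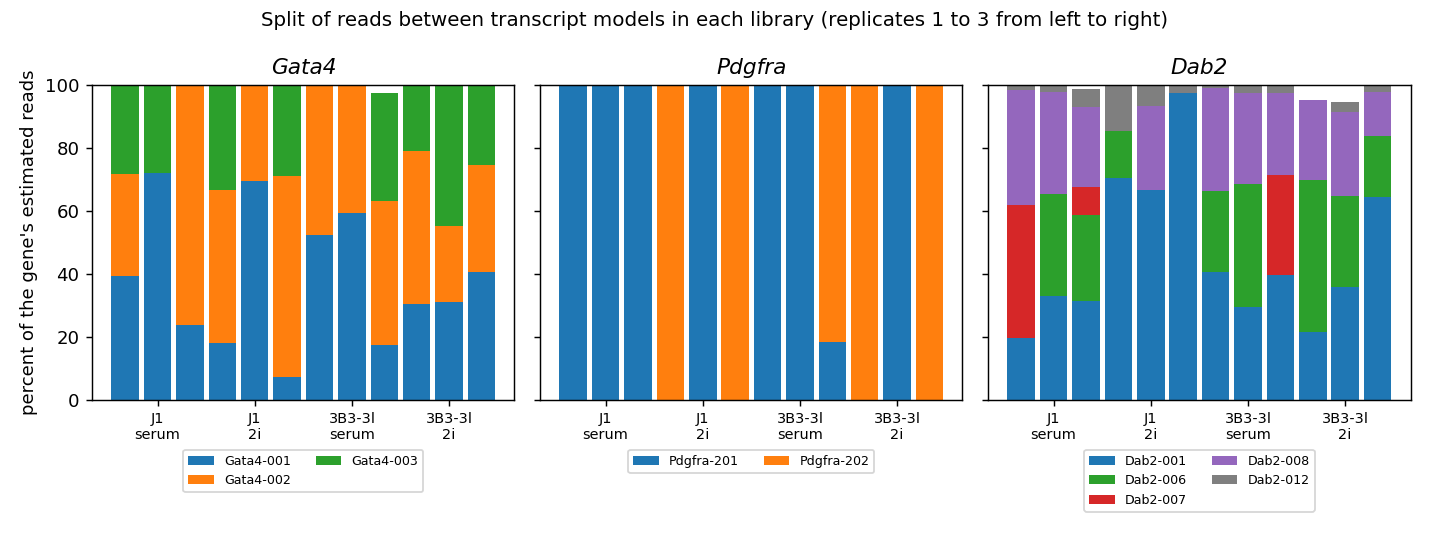
Percent of the estimated reads of Gata4, Pdgfra and Dab2 that each transcript model held in each library (3 bars per group, models that never reached 10% left out). The split changed between replicates of one group, with Pdgfra moving between its 2 models.

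Of the genes of FGF signalling, the receptor Fgfr2 had the widest change. Of 15 genes of FGF and ERK signalling, 10 were called in J1 (4 higher, 6 lower in 2i) and 10 in 3B3-3l (3 higher, 7 lower), with medians of -0.05 and -0.07. Fgfr2, a receptor of the FGF input to primitive endoderm, fell from 21.6 to 0.211 CPM in J1 (log2 fold change -6.66 ± 0.18, adjusted p = 3.55e-14) and from 8.41 to 0.144 CPM in 3B3-3l (-5.82 ± 0.21, adjusted p = 7.11e-13). The highest value was that of the ligand Fgf3 in J1 (0.83 ± 0.14, adjusted p = 9.94e-05) and that of the kinase Map2k2 in 3B3-3l (0.65 ± 0.08, adjusted p = 1.62e-06). In serum, 13 of the 15 were called between the lines, 11 of them higher in 3B3-3l, beside 38.7% of all genes called and 21.5% higher. For comparison with this list and those below, 66.1% of all genes were called between the media in J1 and 65.4% in 3B3-3l. Of the PDGF ligands, 3 of 4 were tested: Pdgfa, which binds PDGFRA, rose from 21.2 to 93.3 CPM in J1 (log2 fold change 2.14 ± 0.07, adjusted p = 4.18e-13) and from 27.6 to 112.8 CPM in 3B3-3l (2.03 ± 0.07, adjusted p = 4.39e-13), while Pdgfb fell in both lines (-0.63 ± 0.12 and -2.07 ± 0.12, adjusted p = 1.52e-04 and 4.34e-10).

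Other transcription factors of extraembryonic endoderm were mixed in direction. Of 9 tested of 10, 7 were called in J1 (4 higher, 3 lower in 2i) and 6 in 3B3-3l (4 higher, 2 lower), with medians of 0.13 and 0.06. Eomes, a T-box factor of visceral endoderm and primitive streak, was the highest, and rose from 2.86 to 28.1 CPM in J1 (log2 fold change 3.30 ± 0.08, adjusted p = 1.84e-14) and from 3.55 to 18.6 CPM in 3B3-3l (2.39 ± 0.08, adjusted p = 3.89e-13). Sall4 was the lowest (-0.93 ± 0.05 and -0.39 ± 0.05, adjusted p = 1.62e-10 and 4.21e-06). Hnf4a was the one with a called difference of at least 1 between the 2i effects (-1.11 ± 0.14, adjusted p = 2.52e-05).

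Among 8 tested paralogs of the listed genes, of 9 in all, 7 were called in J1 (1 higher, 6 lower in 2i) and 4 in 3B3-3l, all lower, with medians of -0.75 and -0.80. Gata2, a haematopoietic GATA factor, had mean levels of 3.42, 3.08, 9.82 and 1.59 CPM in J1 serum, J1 2i, 3B3-3l serum and 3B3-3l 2i, and its 2i effects differed by -2.48 ± 0.22 (adjusted p = 7.03e-07). Pdgfrb, the second PDGF receptor, was at 6.31, 19.4, 7.39 and 7.33 CPM in the same order, with a difference of -1.64 ± 0.14 (adjusted p = 5.77e-07). Gata1 had a difference of 1.32 ± 0.34 (adjusted p = 0.00734). Sox18, the other member of the Sox7 and Sox17 family, had the lowest values, with log2 fold changes of -3.75 ± 0.25 in J1 (adjusted p = 1.87e-09) and -3.71 ± 0.30 in 3B3-3l (adjusted p = 2.11e-08).

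Partners of cubilin included genes that fell with it. Of 9 genes of the cubilin endocytic complex, 6 were called in J1 (4 higher, 2 lower in 2i) and 7 in 3B3-3l (3 higher, 4 lower), with medians of 0.04 and 0.03. Lrp2, which encodes megalin, the receptor that takes cubilin into the cell, fell from 70.9 to 8.41 CPM in J1 (log2 fold change -3.08 ± 0.09, adjusted p = 1.49e-13) and from 130.1 to 8.22 CPM in 3B3-3l (-3.98 ± 0.09, adjusted p = 1.04e-14). Amn, which encodes the membrane anchor of cubilin and was chosen after its values were seen, fell from 1.69 to 0.244 CPM in J1 (-2.79 ± 0.31, adjusted p = 9.82e-07) and from 1.96 to 0.613 CPM in 3B3-3l (-1.68 ± 0.27, adjusted p = 3.98e-05). The highest were the receptor Lrp1 in J1 (0.76 ± 0.09, adjusted p = 1.84e-06) and the chaperone Lrpap1 in 3B3-3l (0.63 ± 0.07, adjusted p = 4.08e-07).

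Genes of the 2 tissues that primitive endoderm forms were mixed in direction. In the visceral endoderm list, which holds Cubn and Amn, 11 of 17 genes were tested, 9 were called in J1 (2 higher, 7 lower in 2i) and 8 in 3B3-3l (2 higher, 6 lower), with medians of -1.24 and -1.42. Spink1, a trypsin inhibitor, held 429 reads in serum and 3 in 2i in J1, a 153-fold ratio with a counting interval of 51.9 to 744, and 470 and 3 in 3B3-3l, a 163-fold ratio with an interval of 55.3 to 792. Apom, an apolipoprotein, was the highest (1.47 ± 0.20 and 0.98 ± 0.21, adjusted p = 8.44e-06 and 5.83e-04). Of the most used markers of mature visceral endoderm, Ttr was at 0 reads in every library and Afp had 0 to 3 reads summed over each group.

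In the parietal endoderm list, 8 of 10 genes were called in J1 (3 higher, 5 lower in 2i) and 6 in 3B3-3l (3 higher, 3 lower), with medians of -0.75 and -0.21. Pth1r, a hormone receptor of parietal endoderm, was the lowest (-3.51 ± 0.32 and -4.45 ± 0.30, adjusted p = 7.72e-08 and 1.93e-09), and the highest were Vim in J1 (1.28 ± 0.06, adjusted p = 4.00e-11) and Fst in 3B3-3l (0.90 ± 0.11, adjusted p = 2.78e-06). Plat and Krt19 had 2i effects that differed between the lines, by 1.89 ± 0.29 (adjusted p = 1.53e-04) and -1.54 ± 0.20 (adjusted p = 2.80e-05).

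Among 12 basement membrane genes, 11 were called in each line, with 4 higher and 7 lower in 2i in both, and with medians of -0.33 and -0.86. Nid1, which links laminin to collagen IV, was the highest, with a rise from 128.9 to 377.9 CPM in J1 (1.55 ± 0.06, adjusted p = 3.51e-12) and from 104.7 to 442.2 CPM in 3B3-3l (2.08 ± 0.06, adjusted p = 1.12e-13). The lowest were the laminin chain Lamb1 in J1 (-2.74 ± 0.06, adjusted p = 6.31e-15) and the collagen chain Col4a2 in 3B3-3l (-3.17 ± 0.10, adjusted p = 1.46e-13). P4ha2, a collagen-modifying enzyme, had a difference of -1.17 ± 0.17 between the 2i effects (adjusted p = 8.37e-05).

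**Figure D5:**
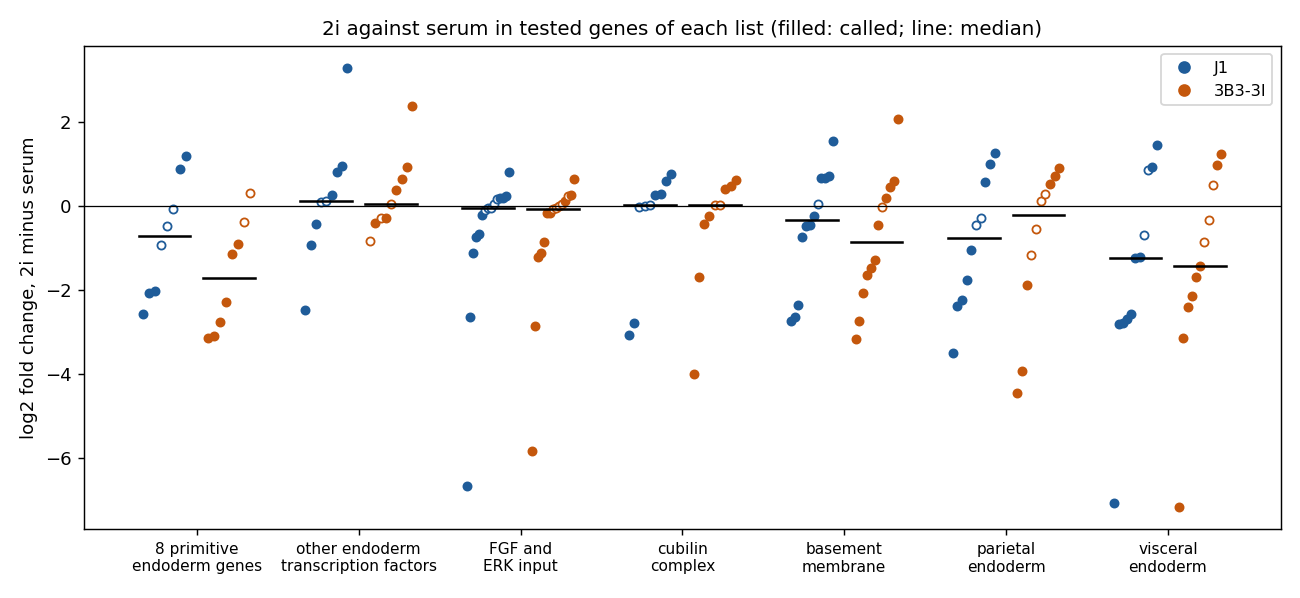
Log2 fold change, 2i minus serum, of each tested gene of the 8-gene list and of 6 lists around it in J1 and 3B3-3l, with filled points for called genes and a line at the median. The medians of the 8 genes were -0.70 and -1.71, and single genes such as Fgfr2 and Spink1 lay far below the rest of their lists, Spink1 with 3 reads in each 2i group.

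Markers of other cell types moved with the media as well. Of 16 feeder fibroblast markers 11 were tested, and 10 were called lower in 2i in J1 (1 higher, Pdgfrb) and 10 lower in 3B3-3l. Their summed level was 76.7 to 81.3 CPM in J1 serum, 30.6 to 31.3 CPM in J1 2i, 96.2 to 108.5 CPM in 3B3-3l serum and 19.0 to 19.3 CPM in 3B3-3l 2i. Between the lines in serum, 6 of the 11 were called higher in 3B3-3l and none lower, beside 21.5% and 17.2% of all genes. Of the defining markers, Dcn was at 0 reads in both 2i groups and at 0.0911 and 0.169 CPM in J1 and 3B3-3l serum, Lum at 0 reads in every group but 3B3-3l serum, where it had 1 read, and Col1a1 in serum at 28.1 CPM (J1) and 35.5 CPM (3B3-3l). In serum, the summed level was higher in every library of the line grown without feeders than in any J1 library. Their part in the values of the 8 genes was not tested.

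Of 10 markers of primitive streak and definitive endoderm, which share Sox17 and Foxa2 with the 8 genes as known markers, 8 were tested and 7 were called in each line (5 higher, 2 lower in 2i). T (brachyury) rose from 0.762 to 13.2 CPM in J1 (log2 fold change 4.09 ± 0.18, adjusted p = 1.65e-11) and from 1.31 to 8.01 CPM in 3B3-3l (2.61 ± 0.17, adjusted p = 1.69e-09). Of 10 markers of endothelium and blood, 9 were tested and 8 were called in each line. In 2i, 1 was higher and 7 lower in J1, and 2 were higher and 6 lower in 3B3-3l. Of 10 trophoblast markers 9 were called in each line (4 higher, 5 lower in 2i). Among 8 macrophage markers only Cd68 was tested, and Ptprc had 0 to 5 reads summed over a group. The part of these markers in the values of the 8 genes was not tested either.

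The genes whose levels ran most alike to each listed gene over the 12 libraries were sought among 14611 or 14612 genes at 1 CPM or more, by Pearson's r of log2 CPM, as a description only, since the libraries fall into 4 groups that share line and medium. They were Camsap2 (r = 0.969) and Pramel1 (0.966) for Gata6, Nova2 (0.970) and Acp6 (0.967) for Gata4, and B4galnt1 (0.936) and ENSMUSG00000096014, which has no symbol here (0.932), for Sox17. For Sox7 they were Rhobtb2 (0.946) and Uck2 (0.943), for Foxa2 Hcn3 (0.986) and Socs5 (0.983), and for Pdgfra Mef2d (0.958) and Trim63 (0.956). For Dab2 they were Lsm14b and Sez6 (both 0.991), and for Cubn Zdhhc9 and Ephb2 (both 0.986). None of these is one of the 8 genes, of which Sox17 and Foxa2, under 1 CPM in every group, were not among the genes searched.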

How the data were processed

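The authors prepared stranded poly(A) libraries, quantified transcripts with Sailfish against mm10 transcript models and summarised them with tximport. They deposited a table of estimated counts per gene, not scaled by library size or length, and, for each library, estimated counts and TPM of every transcript. Their methods name RefSeq models, and the identifiers are those of Ensembl. Coordinates and promoter sequences are from RefSeq (GRCm38), matched by symbol.

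Groups came from the labels. The 8 genes, the lists around them and the tests were chosen with earlier results of these data known. Estimated counts were rounded. Genes were kept by filterByExpr of edgeR 4.0.16 (R 4.3.3), with TMM scaling (factors 0.97 to 1.038), and all 12 libraries entered 1 quasi-likelihood fit with a mean for each group, from which 5 contrasts were taken. The threshold was 0.05 on p values adjusted by Benjamini-Hochberg over the 17885 genes. Adjusted p values without another name are from this test. Errors are standard errors for log2 fold changes and SD for levels. All 8 genes were named, as were the 2 genes most like each of the 8. From each list other than the cell type markers, the highest and lowest gene in each 2i contrast were named, among genes of at least 1 CPM. Genes of these lists at that level with a called difference of at least 1 between 2i effects were also named. Amn, Ttr, Afp and the cell type markers were named outside this rule. The fit was tested on simulated data. Alternatives were DESeq2 (1.42.0) size factors and Wald test, other filters, a 2-fold threshold, length offsets, a replicate block, the 6 libraries compared and each library left out. Replicates differed by more than sampling noise (chi-square per gene of 3.91 to 24.1). Counting intervals and floors cover counting error only, since reads carried no molecular identifiers. Transcript tables were joined to genes by their identifiers, which assigned 90.4% of transcripts.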

Additional observations from a re-analysis of the deposited data

Results flagged for a closer look

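The effect of 2i differed between the lines for 3 of the 8 genes by the test of the difference itself (edgeR quasi-likelihood, 3B3-3l effect minus J1 effect, log2). Of all genes, 34.7% were called by that test, 16.3% higher and 18.3% lower, so the share of the 8 was near that of all genes. For Gata6, the difference was -2.17 ± 0.59 (adjusted p = 0.00927), and its lowest and highest values over the alternatives were -2.75 and -1.78 (adjusted p from 0.0014 to 0.0498). For Sox17, whose libraries were all higher in 2i in J1 and all lower in 2i in 3B3-3l, it was -2.35 ± 0.47 (adjusted p = 0.00131), with values from -2.59 to -2.09 (adjusted p from 0.00137 to 0.0201). For Gata4 it was -0.58 ± 0.20 (adjusted p = 0.0333), with values from -0.71 to -0.42 (adjusted p from 0.0187 to 0.0834). The lines also differed in serum for each of these genes, and culture surface and line cannot be told apart there.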

How the results depend on the processing

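Over the alternatives, 694 of 724 values of single genes kept their direction and their side of the threshold. With at least 10 counts required in every library, which left Gata4, Pdgfra and Dab2 to be tested, the genes called were 2 for 2i in J1, 2 for 2i in 3B3-3l, 3 between the lines in serum and 1 for the difference of the 2i effects, and Pdgfra was then called lower in 2i in 3B3-3l (-0.432, adjusted p = 0.0275). Over all 14585 genes tested with that filter, 10136, 9921, 6458 and 5864 were called in these comparisons, in the same order. With length offsets, 3 were called for 2i in J1, beside 11170 of all 17885 genes. At a threshold of at least 2-fold, 5 were called between the lines in serum and 1 in 2i, and over all genes the counts in the 5 comparisons fell from 11820, 11688, 6916, 8208 and 6200 to 4143, 4190, 820, 1447 and 1470. Leaving out single libraries gave 5 to 6 called for 2i in J1, 6 to 7 for 2i in 3B3-3l, 7 to 8 between the lines in serum, 3 in 2i and 2 to 3 for the difference. Those fits tested 18242 to 18306 genes. They called 11115 to 12026, 10929 to 12058, 5534 to 7406, 7116 to 8369 and 5225 to 6857 of them, in the same order.

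The values that turned direction, none of them called, were Pdgfra for 2i in J1 (0.019 without J1 serum replicate 1, with -0.166 as the lowest value over libraries left out), Gata4 between the lines in 2i (-0.005 without 3B3-3l 2i replicate 2 and -0.013 without J1 2i replicate 2, highest 0.051), and Dab2 for the difference of the 2i effects (0.304 with length offsets). For Foxa2 between the lines in 2i, where both groups were at or under the floor and no fold or direction is read, the fitted values ran to -0.078 with length offsets and from -0.079 (without 3B3-3l 2i replicate 2) to 0.953 with libraries left out. The cause was not tested. The log2 difference of Dab2 between the lines in 2i was 0.62 and at most 1.02 over the alternatives. With the replicate block, the genes called stayed at 5, 6, 8, 3 and 3. Same-numbered libraries did not deviate together (correlations from -0.118 to 0.017). That cannot show whether they were grown or processed together, which the labels do not say. Ranked by TPM in place of RPKM, 4 of the 8 genes changed rank in J1 serum and 0 in the other groups. Depth limits Foxa2 most, at 1 to 3 reads in each 2i library.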
